A study of Rattus norvegicus with 40 samples.

Results

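Cd74 (ENSRNOG00000018735), RT1-Da (ENSRNOG00000032844), RT1-Ba (ENSRNOG00000000451), Aif1 (ENSRNOG00000000853) and Cd68 (ENSRNOG00000037563) are 5 of the 32545 genes measured in rat adrenal glands. They were chosen by Ensembl identifier as 3 genes of antigen presentation by MHC class II and 2 genes of macrophages. RNA-seq was run on the adrenals of adult Sprague Dawley rats, an outbred stock, of both sexes. Males and females were either controls or received organophosphate esters (OPEs), a class of flame retardants and plasticizers, as a mixture at 1 of 3 doses named 30x, 1000x and 30000x. The sources used here do not state the amount behind a multiple, how long animals were exposed or what the controls received. Each of the 8 groups of sex and dose held 5 libraries, called biological replicates in the labels, which do not name the animals.

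MHC class II molecules are pairs of an alpha and a beta chain that show peptides from taken-up material to CD4+ T cells. Cd74 encodes the invariant chain, which escorts the pair from the endoplasmic reticulum to endosomes and blocks its groove until a peptide is loaded, and RT1-Da and RT1-Ba encode alpha chains of the rat D and B molecules, the counterparts of human DR and DQ. Aif1 encodes Iba1, an actin-binding protein of macrophages and microglia, and Cd68 encodes a glycoprotein of late endosomes and lysosomes that is abundant in macrophages. Resident macrophages lie among the steroid-producing cells of the adrenal cortex, and in human adrenals class II protein has also been described on cortical cells of the zona reticularis.

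Promoters of class II genes and of the invariant chain are known for a shared module of X and Y boxes, read by the RFX and NF-Y factors together with the coactivator CIITA. The 250 bases before the annotated start of the 3 class II genes are shown because these genes are compared for shared movement below. They come from RefSeq, build GRCr8, in which 4 of the 5 genes were matched by symbol. Capitals mark the Y box core CCAAT, or its reverse complement where it lies on the other strand, and the X1 box core AGCAAC.
Cd74 promoter, chr18:56526956-56527205, plus strand: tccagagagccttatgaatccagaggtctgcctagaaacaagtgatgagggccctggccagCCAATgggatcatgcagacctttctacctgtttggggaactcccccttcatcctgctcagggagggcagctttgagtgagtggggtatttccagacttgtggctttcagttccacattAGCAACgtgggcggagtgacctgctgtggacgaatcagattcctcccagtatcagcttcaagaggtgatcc
RT1-Da promoter, chr20:4515165-4515414, plus strand: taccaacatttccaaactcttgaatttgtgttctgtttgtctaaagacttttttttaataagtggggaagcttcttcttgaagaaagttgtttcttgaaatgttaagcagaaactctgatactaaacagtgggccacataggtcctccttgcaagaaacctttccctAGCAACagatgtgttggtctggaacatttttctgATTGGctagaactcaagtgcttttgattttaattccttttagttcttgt
RT1-Ba promoter, chr20:4576807-4577056, plus strand: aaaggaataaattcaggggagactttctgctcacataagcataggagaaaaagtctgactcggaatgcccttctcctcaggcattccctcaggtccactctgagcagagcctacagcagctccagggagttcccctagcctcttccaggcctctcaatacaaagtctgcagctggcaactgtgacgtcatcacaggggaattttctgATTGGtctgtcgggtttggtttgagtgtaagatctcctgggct

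All 3 class II windows held a CCAAT core. In RT1-Da it lay 49 to 45 bases before the start and in RT1-Ba 43 to 39 bases before it, both on the opposite strand, whereas the core of Cd74 lay 189 to 185 bases before the start on the gene's own strand. AGCAAC was found at 71 to 66 bases before the start of Cd74 and at 83 to 78 bases in RT1-Da, and these letters were not in the RT1-Ba window. In Cd74 CCAAT thus lay farther from the start than AGCAAC, the reverse of the order in RT1-Da. By these exact letters the 3 class II windows do not share one arrangement of the cores. Inexact matches were not searched. The RT1-Ba window holds ggcaac, which differs from AGCAAC in its first letter. It lies farther from the start than ATTGG, as AGCAAC does in RT1-Da. Whether any of these matches is a working X or Y box was not tested. The Cd68 window held CCAAT at 144 to 140 bases and no AGCAAC. Both cores were searched on both strands and do not overlap each other in these windows. Of 27457 RefSeq rat promoter windows of 250 bases, 34.3% held CCAAT, 12.2% held AGCAAC and 4.13% held both, so a match is common and describes the letters only. The longest run of bases shared by the RT1-Da and RT1-Ba windows, looked for after the sequences had been seen, was TTTTCTGATTGG, which includes the CCAAT core and was present in 9 of the 27457 windows (0.0328%). The run was picked for being shared, and runs this long are in few windows by their length. Its share therefore describes the letters only.

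Levels are given as FPKM, fragments per kilobase of gene, whose deposited scale follows size factors and not library totals. Between 13527205 and 23838651 reads per library could be recovered from these values. Over the 40 libraries, Cd74 rested on 3929 to 26099 reads per library, RT1-Da on 1020 to 7715, RT1-Ba on 80 to 1255, Aif1 on 71 to 739 and Cd68 on 89 to 755, and all 5 genes were above 1 FPKM in every library. The least read genes, RT1-Ba, Aif1 and Cd68, carry the larger counting error. One library stood apart in several respects. By FPKM + 1, female 30000x replicate 5 exceeded the other 4 libraries of its group by at least 1.5-fold in 1090 of 13926 genes (7.83%). Any of the other 39 libraries did so in at most 385 genes. Female 30000x replicate 5 also had the fewest recovered reads (13527205), the lowest size factor (0.58) and the fewest genes with a value (14437). Its 10 most abundant genes took 38.2% of the reads, the highest share of all. Markers of other cell types and of adrenal cells were not analysed here, because 0 identifiers of the files matched the gene name table.

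Cd74 was by far the most abundant of the 5 genes, with a median of 332 FPKM over the 40 libraries, and ranked 165th by mean level among 13926 genes tested. The male control libraries held 281, 287, 249, 339 and 236 FPKM, and the 30x libraries 296, 201, 279, 325 and 265 FPKM. At 1000x the males had 174, 276, 286, 429 and 297 FPKM, and at 30000x 347, 175, 202, 232 and 262 FPKM. The 4 male groups overlapped one another, and the lowest and the highest male value both came from the 1000x group. Female controls had 563, 401, 494, 479.7 and 480.3 FPKM, and 30x females 439, 485, 519.7, 386 and 453 FPKM. At 1000x the females had 339.6, 463, 411, 290.4 and 985 FPKM, and at 30000x 286, 268, 546, 360.0 and 353 FPKM. All control and 30x females lay above all males of the same dose, and a single 1000x female, replicate 5, stood far above every other library. By group mean, the order ran from 1000x females (498 ± 280.3, SD, n = 5), control females (484 ± 57.7), 30x females (457 ± 50.2) and 30000x females (363 ± 110.1) to 1000x males (292 ± 91.0), control males (278 ± 40.03), 30x males (273 ± 46.4) and 30000x males (244 ± 66.4). No neighbours in this order differed by more than the larger of their SDs.

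RT1-Da, the alpha chain of the D molecule, had a median of 50.5 FPKM and ranked 1233rd. Male controls had 49.8, 43.9, 39.6, 51.3 and 40.7 FPKM, and 30x males 47.0, 32.4, 42.7, 48.8 and 43.6 FPKM. The 1000x males had 25.5, 41.4, 44.8, 66.0 and 45.1 FPKM, and the 30000x males 64.5, 25.3, 32.8, 34.7 and 41.1 FPKM. The highest male of each dose was the same library as for Cd74. Female controls had 95.5, 64.6, 77.6, 79.001 and 77.95 FPKM, and 30x females 74.6, 82.3, 87.8, 61.4 and 76.3 FPKM. The 1000x females had 54.1, 75.5, 75.7, 47.3 and 162 FPKM, and the 30000x females 48.5, 47.3, 95.3, 59.1 and 84.7 FPKM. As for Cd74, the sexes did not overlap in controls or at 30x, and 1000x female replicate 5 was the highest library. Group means ran from 82.9 ± 45.9 FPKM in 1000x females, through 78.9 ± 10.99 in control females, 76.5 ± 9.92 in 30x females and 66.96 ± 21.8 in 30000x females, to 45.1 ± 5.26 in control males, 44.6 ± 14.4 in 1000x males, 42.9 ± 6.38 in 30x males and 39.7 ± 15.0 in 30000x males (SD, n = 5). The step from 30000x females to control males was the only one between neighbours that exceeded the larger SD.

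RT1-Ba, the alpha chain of the B molecule, was the least abundant class II gene, with a median of 10.004 FPKM and rank 5778, and varied most. Male controls had 14.9, 7.04, 7.07, 11.7 and 4.94 FPKM, and 30x males 8.22, 6.60, 7.15, 7.14 and 10.04 FPKM. The 1000x males had 3.44, 8.54, 6.999, 12.3 and 13.1 FPKM, and the 30000x males 9.88, 4.33, 5.13, 6.67 and 4.88 FPKM. Male groups overlapped throughout. Female controls had 14.7, 10.8, 13.3, 7.29 and 11.6 FPKM, 30x females 14.5, 6.98, 12.8, 5.81 and 13.6 FPKM, and 1000x females 9.97, 13.5, 11.3, 8.46 and 31.9 FPKM. The 30000x females had 46.0, 37.0, 14.8, 11.5 and 11.8 FPKM. Replicates 1 and 2 of the 30000x females were the highest of all 40 libraries for RT1-Ba, with 1255 and 720 reads, while the other 3 of that group lay within or just above the range of the female controls. The largest group mean was accordingly that of 30000x females (24.2 ± 16.2 FPKM), followed by 1000x females (15.0 ± 9.60), control females (11.5 ± 2.82), 30x females (10.7 ± 4.02), control males (9.13 ± 4.06), 1000x males (8.87 ± 3.95), 30x males (7.83 ± 1.37) and 30000x males (6.18 ± 2.24; SD, n = 5 in each). No step between neighbours exceeded the larger SD.

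Aif1 had a median of 7.09 FPKM and ranked 7246th, the lowest level of the 5 genes. Male controls had 5.67, 4.83, 5.91, 6.01 and 4.34 FPKM, 30x males 8.13, 4.79, 5.98, 6.47 and 5.72 FPKM, and 1000x males 5.63, 6.25, 6.67, 9.63 and 7.93 FPKM. The 30000x males had 8.96, 4.86, 5.73, 5.56 and 4.70 FPKM. All but 1 of these 5 lay within the range of the controls, and replicate 1 lay apart above them. Female controls had 16.5, 6.86, 14.4, 7.99 and 10.4 FPKM, 30x females 8.08, 7.83, 10.999, 8.63 and 9.64 FPKM, and 1000x females 8.19, 7.91, 9.82, 7.12 and 21.6 FPKM. The 30000x females had 6.46, 2.76, 7.38, 7.05 and 11.4 FPKM. Replicate 2 of that group was the lowest of all 40 libraries for Aif1, and it was also 1 of the pair with the highest RT1-Ba. Group means ran from control females (11.2 ± 4.12 FPKM), 1000x females (10.9 ± 6.03) and 30x females (9.04 ± 1.30) through 1000x males (7.22 ± 1.59), 30000x females (7.002 ± 3.06) and 30x males (6.22 ± 1.23) to 30000x males (5.96 ± 1.73) and control males (5.35 ± 0.73; SD, n = 5 in each). Between neighbours, the step from 30x females to 1000x males alone exceeded the larger SD.

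Cd68 had a median of 10.4 FPKM and ranked 5999th. Male controls had 4.67, 6.35, 8.35, 7.39 and 6.94 FPKM, 30x males 7.90, 4.38, 9.30, 8.21 and 5.78 FPKM, and 1000x males 5.76, 7.21, 8.37, 11.6 and 10.7 FPKM. The 30000x males had 8.32, 4.70, 5.59, 7.16 and 7.09 FPKM. All male groups overlapped, and the highest values came from the 1000x group. Female controls had 20.3, 10.2, 20.96, 10.96 and 16.2 FPKM, 30x females 15.6, 13.9, 14.5, 15.5 and 11.1 FPKM, and 1000x females 12.01, 14.7, 10.8, 12.3 and 31.9 FPKM. The 30000x females had 8.81, 13.4, 12.8, 13.6 and 15.0 FPKM. The sexes overlapped at 1000x only. Group means ran from 1000x females (16.4 ± 8.83 FPKM), control females (15.7 ± 5.05), 30x females (14.1 ± 1.84) and 30000x females (12.7 ± 2.33) to 1000x males (8.71 ± 2.40), 30x males (7.11 ± 1.99), control males (6.74 ± 1.37) and 30000x males (6.57 ± 1.43; SD, n = 5 in each). Among neighbours, 30000x females and 1000x males alone differed by more than the larger SD.

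**Figure D1:**
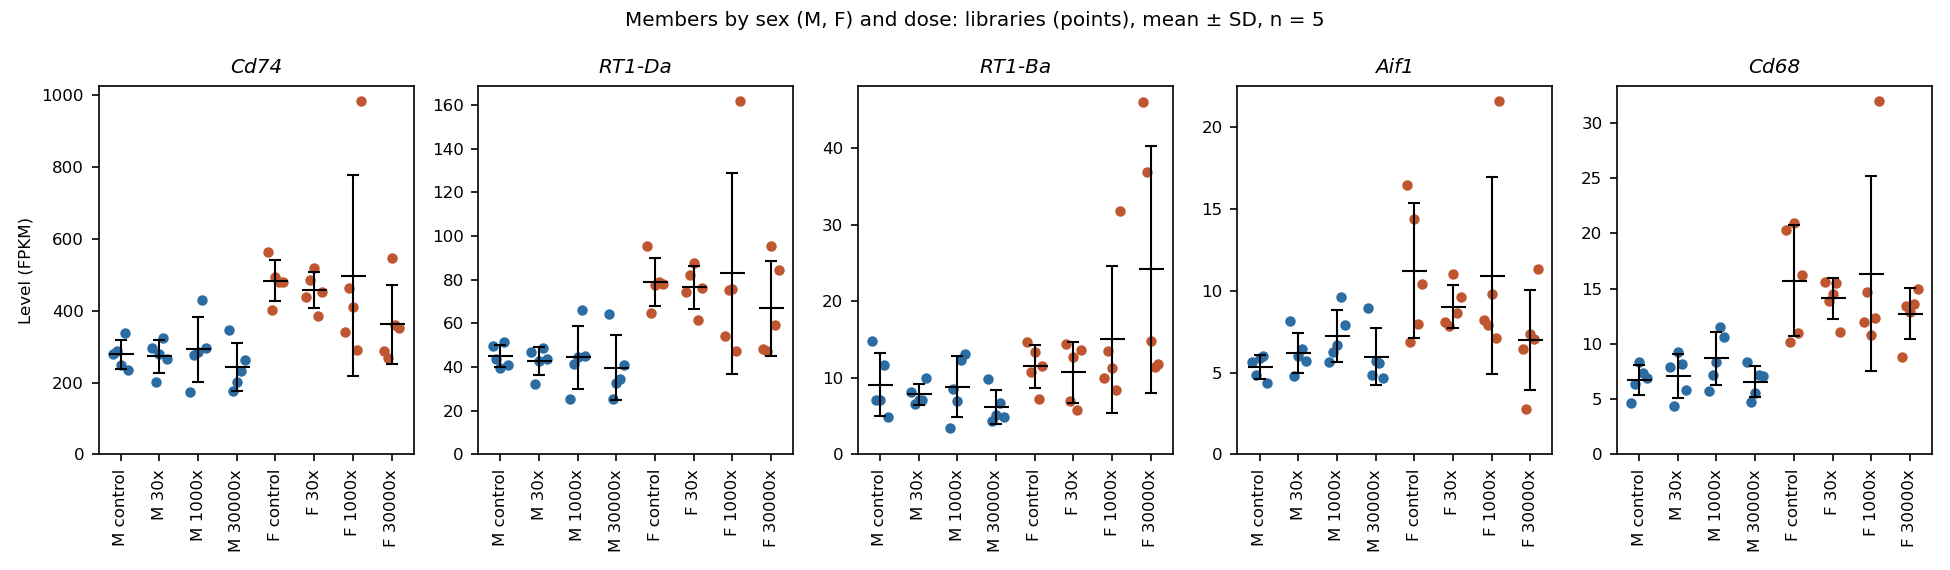
Level of each gene in FPKM (linear axis from 0) in the 40 libraries, by sex and dose, with points for libraries and bars for mean ± SD (n = 5). The female (orange) mean lies above the male (blue) mean of the same dose for every gene, 1000x female replicate 5 is the highest library for Cd74 (985 FPKM), RT1-Da (162 FPKM), Aif1 (21.6 FPKM) and Cd68 (31.9 FPKM), and 2 libraries of 30000x females are highest for RT1-Ba (46.0 and 37.0 FPKM).

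Within groups the 5 genes varied more than most genes. The SD within groups, on the log2(FPKM + 1) scale, was 0.38 for Cd74, 0.40 for RT1-Da, 0.59 for RT1-Ba, 0.40 for Aif1 and 0.37 for Cd68. Among the 13926 genes tested these lay between the 72.7th percentile, for Cd68, and the 89.9th, for RT1-Ba. The 8 groups accounted for 55.3% of the variance of Cd74, 56.4% of that of RT1-Da, 44.5% of that of RT1-Ba, 43.4% of that of Aif1 and 66.4% of that of Cd68, and for 24.1% of that of the median gene. Female 1000x replicate 5 held from 2.50-fold (RT1-Da) to 3.00-fold (RT1-Ba) the median of the other 4 libraries of its group, with the other 3 genes in between.

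Females had higher levels of all 5 genes than males, averaged over the 4 dose groups. In bulk tissue, more cells of a type and more RNA per cell cannot be told apart. Cd74 ranged from 174 to 429 FPKM in the 20 males (median 277) and from 268 to 985 FPKM in the 20 females (median 446), and 19 of 20 females lay above the male median. On the log2(FPKM + 1) scale the females exceeded the males by 0.70 (SE 0.12, limma adjusted p = 2.6e-05). RT1-Da ranged from 25.3 to 66.0 FPKM in males (median 43.1) and from 47.3 to 162 FPKM in females (median 76.0), with all 20 females above the male median and a difference of 0.79 (SE 0.12, limma adjusted p = 9.6e-06). The D molecule's alpha chain and the invariant chain thus differed between the sexes by a similar amount.

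RT1-Ba ranged from 3.44 to 14.9 FPKM in males (median 7.11) and from 5.81 to 46.0 FPKM in females (median 12.3), with 18 of 20 females above the male median and a difference of 0.75 (SE 0.18, limma adjusted p = 0.0016). Without 30000x female replicates 1 and 2, this difference was 0.58 (limma adjusted p = 0.0058). Both macrophage genes were also higher in females. Aif1 ranged from 4.34 to 9.63 FPKM in males (median 5.82) and from 2.76 to 21.6 FPKM in females (median 8.13), with 19 of 20 females above the male median and a difference of 0.49 (SE 0.12, limma adjusted p = 0.0027). Cd68 ranged from 4.38 to 11.6 FPKM in males (median 7.19) and from 8.81 to 31.9 FPKM in females (median 13.8), with all 20 females above the male median and the largest difference of the 5 genes, 0.91 (SE 0.11, limma adjusted p = 3.2e-07). For comparison, 29.5% of all genes tested were called in this contrast, 13.9% as higher in females, so a called sex difference was common in this tissue.

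By dose, all 5 females lay above all 5 males for Cd74, RT1-Da, Aif1 and Cd68 in controls, where 2.64% of all genes did so. This held for Cd74, RT1-Da and Cd68 at 30x (2.79% of all genes), for none of the 5 genes at 1000x (2.42%) and for RT1-Ba and Cd68 at 30000x (2.23%). In controls RT1-Ba was the exception among the class II genes: its sexes overlapped. There 0 of 5 females exceeded the highest male, replicate 1 at 14.9 FPKM. At 30000x it was the only class II gene whose sexes did not overlap. The sexes also differed in the makeup of their libraries: the 10 most abundant genes took 15.7% to 22.98% of the reads in males and 21.7% to 38.2% in females. Scaling to library totals moved the median difference of all genes to -0.13 and the calls from 1930 higher and 2173 lower in females to 601 higher and 4856 lower. All 5 genes stayed among those called higher, with differences of 0.53 for Cd74, 0.63 for RT1-Da, 0.60 for RT1-Ba, 0.34 for Aif1 and 0.75 for Cd68 (limma adjusted p from 3.5e-06 to 0.024). Within groups, neither the size factor nor the share of the 10 most abundant genes followed any of the 5 genes in a way that passed the threshold (10 relations, lowest adjusted permutation p = 0.65).

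The dose comparisons ask whether exposure to the mixture changed these genes in either sex. None of the 5 genes passed the threshold at any dose in males or females, in the trend over dose rank, or in the interaction of sex and dose, by limma or by voom on the recovered reads. Few genes did so at all: 0.00763% of 13110 genes were called in each of the 3 male comparisons and in the male trend, and 0% of 13251 genes in the female ones, by either tool in females. At an unadjusted p under 0.05 these shares were 9.52%, 7.22% and 5.88% in males at 30x, 1000x and 30000x and 4.37% in the male trend, and 7.95%, 1.67% and 9.88% in females. The doses of a sex share their controls. These tests set a difference between group means, or a trend, against the spread between libraries. An interval that includes 0 does not show that a level stayed the same.

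In males, Cd74 differed from control by -0.033 at 30x, 0.024 at 1000x and -0.22 at 30000x on the log2(FPKM + 1) scale, with SE 0.20 in each. RT1-Da differed by -0.076, -0.069 and -0.24 (SE 0.22), and RT1-Ba by -0.12, -0.060 and -0.46 (SE 0.29). At 30000x the 95% intervals were -0.64 to 0.20 for Cd74, -0.70 to 0.21 for RT1-Da and -1.07 to 0.15 for RT1-Ba. All 3 class II genes had their lowest male mean at 30000x, and all 3 intervals held 0. The size of these differences depended on single libraries. Cd74 was -0.36 without 30000x male replicate 1 and -0.11 without replicate 2, and RT1-Da was -0.43 and -0.10 without the same libraries. RT1-Ba was -0.63 without male control replicate 5 and -0.27 without male control replicate 1, and none of these values passed the threshold. Aif1 differed by 0.18, 0.36 and 0.11 (SE 0.16), and its 1000x value had an unadjusted p of 0.035 (limma adjusted p = 0.67). Cd68 differed by 0.049, 0.31 and -0.034 (SE 0.20). Both macrophage genes had their highest male mean at 1000x, which neither test called.

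In females, Cd74 differed from control by -0.082 at 30x, -0.094 at 1000x and -0.45 at 30000x (SE 0.25 in each), the last with a 95% interval of -0.97 to 0.060. RT1-Da differed by -0.044, -0.060 and -0.28 (SE 0.25). Aif1 differed by -0.23, -0.084 and -0.64 (SE 0.30), the last with an unadjusted p of 0.043 (limma adjusted p = 0.50). Cd74, RT1-Da, Aif1 and Cd68 had their lowest female mean at 30000x. Cd68 differed by -0.097, -0.0045 and -0.25 (SE 0.24). RT1-Ba went the other way at the top dose, with -0.14, 0.23 and 0.80 (SE 0.39, limma adjusted p = 0.50 at 30000x). That value came from 2 of 5 libraries: without replicates 1 and 2 it was 0.15, while Aif1 was then -0.31, Cd74 -0.23 and RT1-Da -0.0033. At 1000x, leaving out replicate 5 gave -0.38 for Cd74, -0.33 for RT1-Da, -0.071 for RT1-Ba, -0.34 for Aif1 and -0.26 for Cd68, with limma adjusted p of 1.00 in each.

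The trend over dose rank in females was 0.28 per step for RT1-Ba (SE 0.12, unadjusted p = 0.032, limma adjusted p = 0.74), where 6.34% of all genes had an unadjusted p under 0.05. Without 30000x replicates 1 and 2 it was 0.087. The change at 30000x differed between females and males by 1.26 for RT1-Ba (SE 0.50, unadjusted p = 0.017, limma adjusted p = 0.33) and -0.75 for Aif1 (SE 0.35, unadjusted p = 0.037, limma adjusted p = 0.37). Without the same 2 libraries these became 0.61 and -0.42. In that contrast 12.8% of all genes had an unadjusted p under 0.05 and 0% were called. No change with dose was therefore shown to differ between the sexes for any of the 5 genes.

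**Figure D2:**
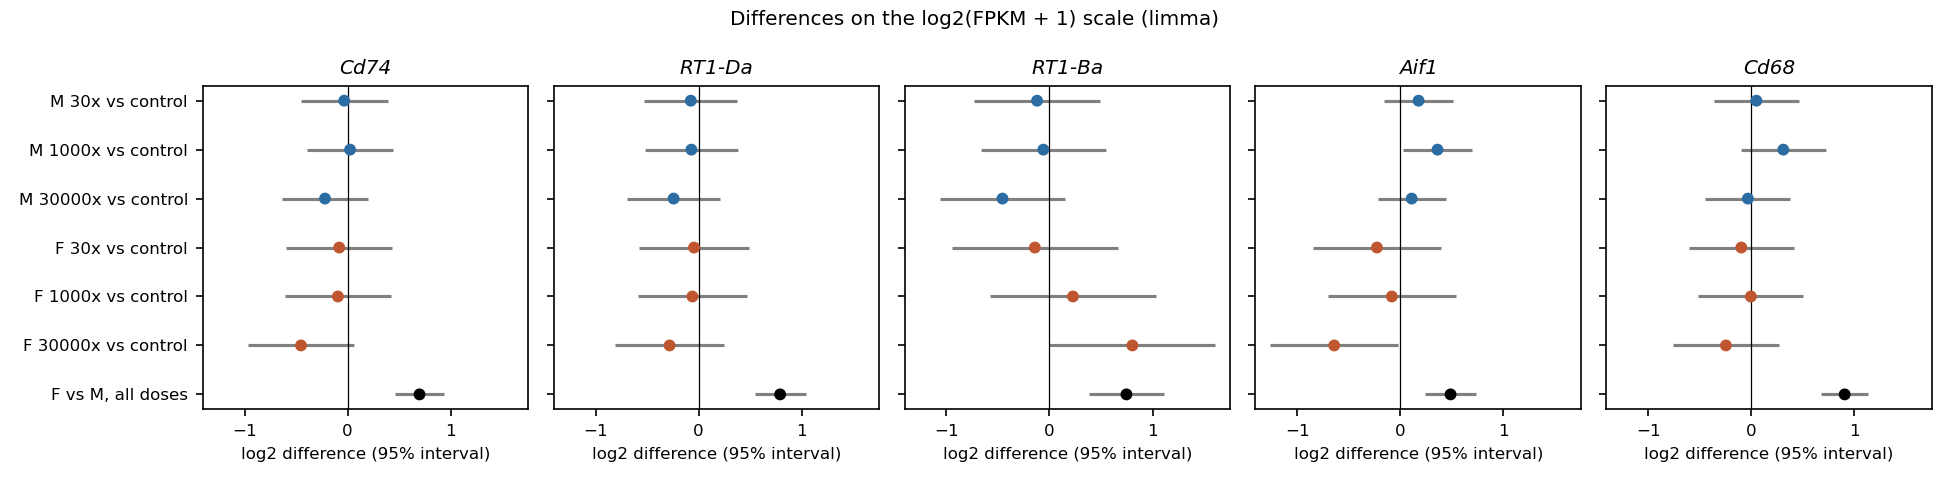
Difference of each gene from the controls of its sex at each dose, and of females from males over all doses, on the log2(FPKM + 1) scale, with points for estimates and lines for 95% intervals (limma, 5 libraries per group). The bottom row, females against males, lies above 0 for all 5 genes (0.49 for Aif1 to 0.91 for Cd68), and the intervals that leave 0 in the dose rows, those of Aif1 in males at 1000x and in females at 30000x, belong to values that missed the threshold after adjustment.

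Whether the class II genes moved together was examined across the 40 libraries after subtracting the mean of each sex and dose group, so that differences between groups did not enter. Cd74 and RT1-Da moved together almost library by library, with Pearson r = 0.965 and Spearman rho = 0.909 (n = 40, permutation p = 1e-05, the lowest value 100000 permutations allow, and 5e-05 adjusted over the 10 pairs). In males r was 0.972 and in females 0.960, and without the 2 libraries farthest from the median of Cd74 it was 0.948. In 8 of 8 groups the library with the highest Cd74 also had the highest RT1-Da, and in 7 of 8 the lowest was the same library. Of 13925 other genes, RT1-Da ranked first by its correlation with Cd74, and Cd74 first by its correlation with RT1-Da. The invariant chain held 4.16 to 6.93 FPKM per FPKM of RT1-Da (median 6.17, coefficient of variation 7.88%), and the lowest ratio was in 30000x female replicate 5.

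RT1-Ba followed the other class II genes less closely. Its Pearson correlation was 0.45 with Cd74 (adjusted permutation p = 0.030) and 0.42 with RT1-Da (adjusted permutation p = 0.040). By rank neither passed the threshold, with rho = 0.33 for Cd74 (adjusted permutation p = 0.069) and rho = 0.36 for RT1-Da (adjusted permutation p = 0.064). In males these were 0.73 and 0.76, and in females 0.28 and 0.21, the latter 2 not past the threshold (adjusted permutation p = 0.41 and 0.52). The difference between the sexes in these correlations was not tested. Without the 2 libraries farthest from the median, of which 1000x female replicate 5 was 1 in each case, both were 0.23 and did not pass the threshold (permutation p = 0.28 and 0.29). Leaving out 30000x female replicates 1 and 2, a pair chosen after their RT1-Ba values were seen, gave 0.76 with Cd74 and 0.76 with RT1-Da over the other 38 libraries.

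Single libraries also decided whether these correlations of RT1-Ba passed the threshold. That with Cd74 missed it without male 1000x replicate 1 (0.37), male 1000x replicate 4 (0.42), male 30000x replicate 1 (0.42), female 1000x replicate 4 (0.42) or female 1000x replicate 5 (0.29). That with RT1-Da missed it without male 1000x replicate 1 or 4, male 30000x replicate 1 or 2, female control replicate 1, female 30x replicate 4, female 30000x replicate 4 or any 1 of the 5 female 1000x libraries, with values from 0.26 to 0.42. By rank, RT1-Ba stood 273rd of 13925 genes in its correlation with Cd74, 5th without the 2 high 30000x females, and 843rd without female 1000x replicate 5.

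The ratio of RT1-Ba to RT1-Da sets the 2 libraries apart. It lay between 0.085 and 0.30 in 38 libraries and was 0.949 and 0.782 in 30000x female replicates 1 and 2. In these 2 libraries RT1-Da (48.5 and 47.3 FPKM) and Cd74 (286 and 268 FPKM) were the lowest of their group, so that the 2 alpha chains went in opposite directions there. For this pair of libraries, chosen for their RT1-Ba values, genes were compared on FPKM + 1. On that scale 18 of 13926 genes (0.129%) were at least 2-fold higher in both than in each other library of the group. RT1-Ba ranked 13th among them. In FPKM its lower value of the pair was 2.49-fold the highest of the other 3. The sources used here do not state how reads shared between related class II genes were assigned. Sprague Dawley rats are an outbred stock in which RT1 haplotypes can differ between animals. RT1-Ba, RT1-Da and Aif1 are annotated to chromosome 20, Cd74 to chromosome 18 and Cd68 to chromosome 10. Whether haplotype bears on these RT1-Ba values, or on those of RT1-Da and Aif1, was not tested.

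**Figure D3:**
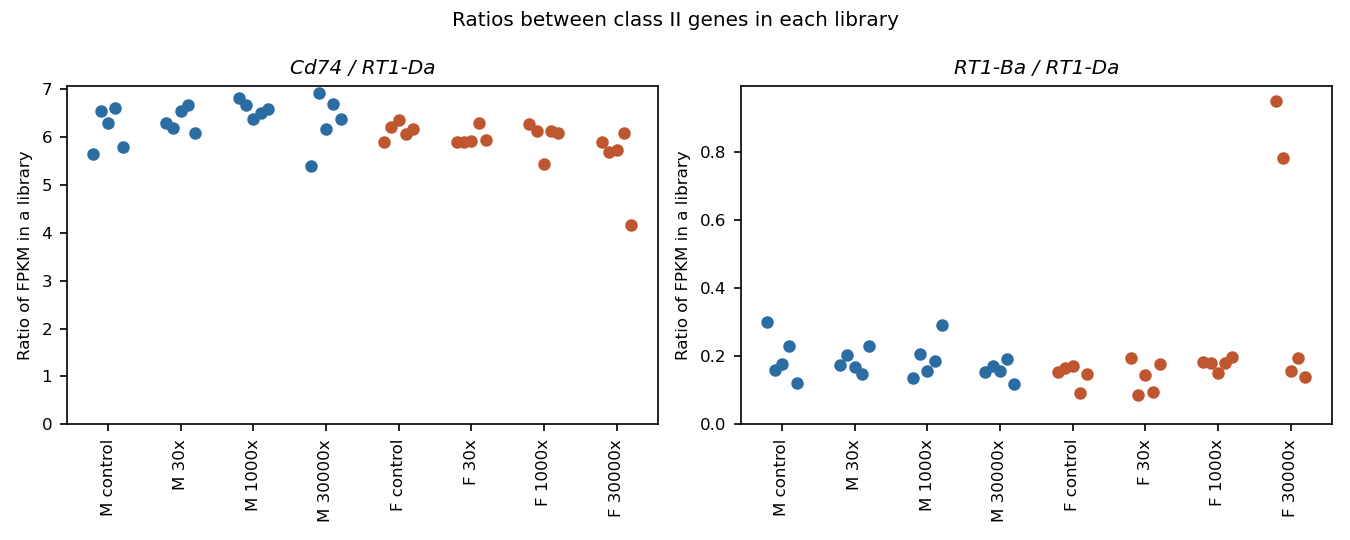
Ratio of FPKM between class II genes in each of the 40 libraries (linear axes from 0), by sex (M blue, F orange) and dose. The ratio of Cd74 to RT1-Da stays between 4.16 and 6.93, and the ratio of RT1-Ba to RT1-Da is 0.30 or less in 38 libraries and 0.949 and 0.782 in 2 libraries of 30000x females.

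The macrophage genes followed Cd74 and RT1-Da. Aif1 correlated with Cd74 at 0.72 (rho = 0.66, adjusted permutation p = 6.7e-05) and with RT1-Da at 0.76 (rho = 0.68, adjusted permutation p = 5e-05). Cd68 correlated with Cd74 at 0.71 (rho = 0.64, adjusted permutation p = 0.00016) and with RT1-Da at 0.67 (rho = 0.53, adjusted permutation p = 0.00016). By Pearson r these 4 correlations lay between 0.67 and 0.80 in each sex. Over both sexes, without the 2 libraries farthest from the median, they lay between 0.54 and 0.66. Leaving out 1 library at a time gave 0.53 to 0.78, all past the threshold, and each of the 4 was lowest without female 1000x replicate 5. By rank, RT1-Da and Cd68 did not pass the threshold in females alone. Aif1 and Cd68 correlated with each other at 0.65 (rho = 0.65, adjusted permutation p = 0.0012).

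Against the rest of the genes, Aif1 ranked 12th and Cd68 18th of 13925 in their correlation with Cd74, where the median gene was at -0.0061. The library with the highest Cd74 was also the highest for Aif1 in 6 of 8 groups, but for Cd68 and RT1-Ba in 3 of 8. The lowest library was the same as for Cd74 in 6 of 8 groups for Aif1 and RT1-Ba and in 4 of 8 for Cd68. With 5 libraries per group some matches arise by chance. The share over all genes was not computed for these counts or those of RT1-Da. By Pearson r neither macrophage gene passed the threshold with RT1-Ba over all libraries, at 0.30 for Aif1 (adjusted permutation p = 0.16) and 0.31 for Cd68 (adjusted permutation p = 0.085). By rank Aif1 passed it (rho = 0.37, adjusted permutation p = 0.036) and Cd68 did not (rho = 0.28, adjusted permutation p = 0.083). In males RT1-Ba and Aif1 correlated at 0.70, and in females at 0.15. Without 30000x female replicates 1 and 2, chosen for their RT1-Ba values, the correlation of RT1-Ba was 0.68 with Aif1 and 0.51 with Cd68. The choice used the values being correlated, so the threshold does not apply to these 2 correlations. Without female 1000x replicate 5 both were 0.12. Cd68 per Aif1 ranged from 0.82 to 1.94 in 39 libraries with a female median above the male one (1.48 and 1.21 over all 40), and reached 4.86 in 30000x female replicate 2, where Aif1 was at its lowest.

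**Figure D4:**
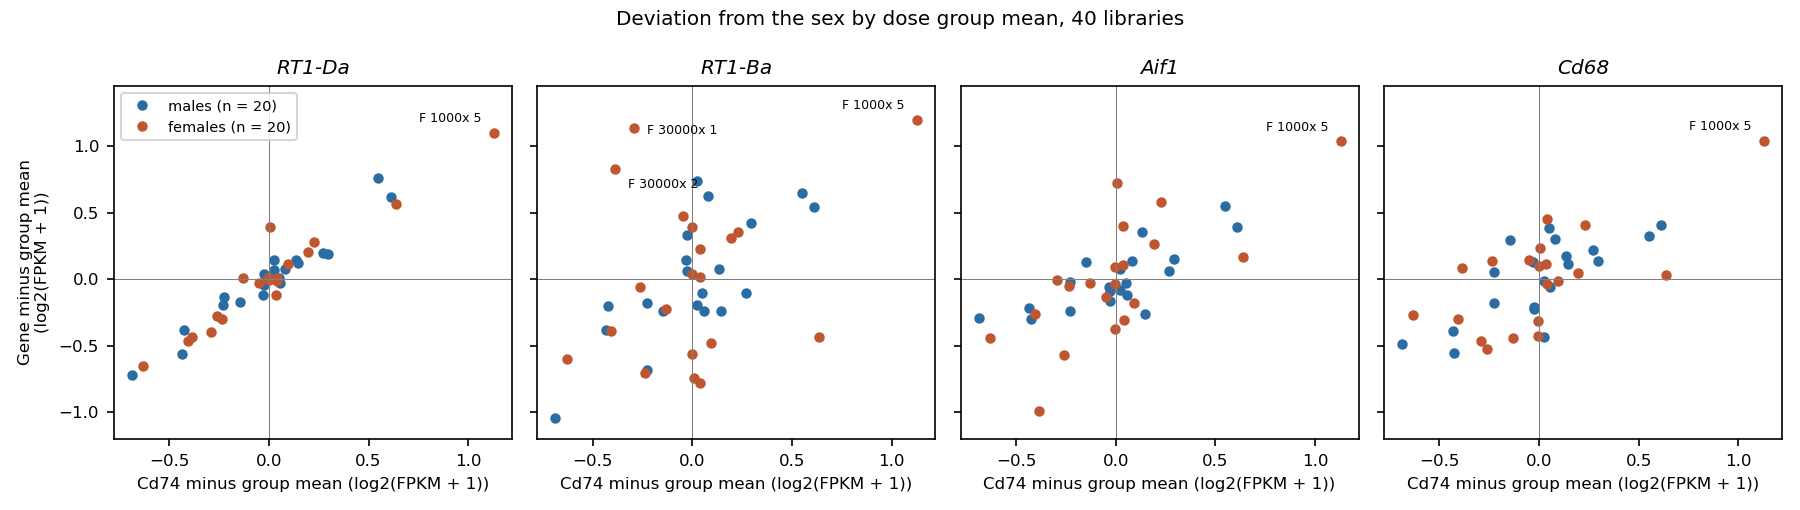
Deviation of RT1-Da, RT1-Ba, Aif1 and Cd68 from the mean of their sex and dose group against that of Cd74, on the log2(FPKM + 1) scale, with 1 point per library (20 males in blue, 20 females in orange). RT1-Da lies along a line with Cd74 (r = 0.965), Aif1 (0.72) and Cd68 (0.71) scatter around one, and in the RT1-Ba panel 30000x female replicates 1 and 2 sit high to the left of the rest; 1000x female replicate 5 is at the upper right in every panel.

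Outside the 5 genes, the genes most like the class II genes were sought by correlation with the mean deviation of Cd74, RT1-Da and RT1-Ba, each divided by its SD, over the 40 libraries. Only 2 of 13921 genes had r above 0.8. These were ENSRNOG00000033215 (r = 0.835, mean level 11.5 FPKM) and ENSRNOG00000024159 (r = 0.821, mean level 42.7 FPKM), identifiers for which the tables used here give no name. On the same scale Aif1 had r = 0.69 and Cd68 r = 0.66, which would place them 9th and 24th. The median gene had r = -0.0035 and the lowest was -0.54.

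**Figure D5:**
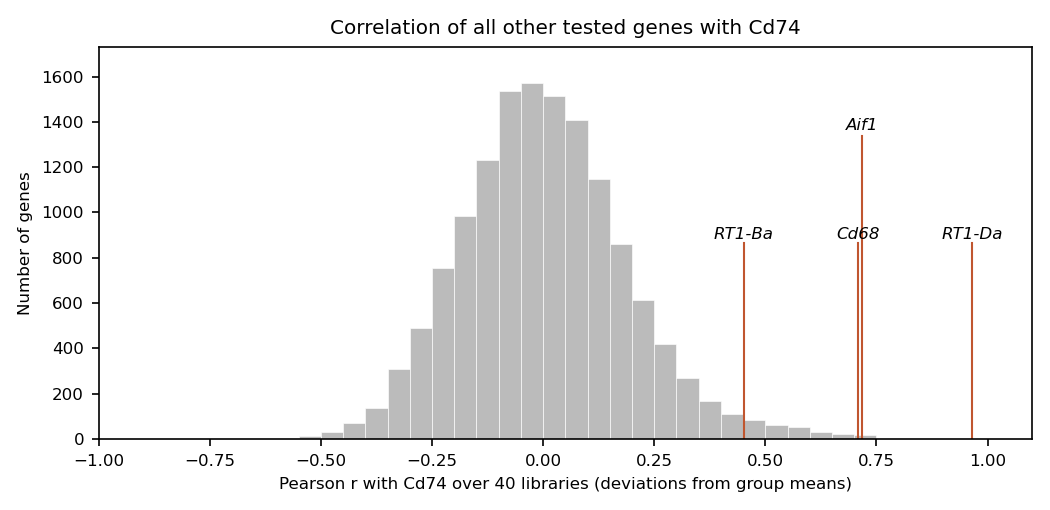
Number of genes by their Pearson correlation with Cd74 over 40 libraries, after subtracting group means (grey bars, all other genes tested), with lines for the other 4 genes. RT1-Da (0.965) lies beyond every other gene, Aif1 (0.72) and Cd68 (0.71) lie in the upper tail, and RT1-Ba (0.45) lies closer to the bulk.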

How the data were processed

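Total RNA of adrenal glands was extracted with a Qiagen column kit, per the labels' protocols, and HISAT2 2.0.5 and featureCounts 1.5.0-p3 were used, per the submitters' processing notes. The sources used here do not state the genome build, the annotation or the strand setting. For each library the authors deposited 1 table of FPKM values. Of 32545 genes, 9505 were at 0 in every library. Whole reads were recovered from the steps of the FPKM values: 100.0% of 680244 values, of 20717 genes found in 3 or more libraries, lay within 0.05 of a whole read. The recovered scales equalled median-of-ratios size factors (0.58 to 1.54). The sources used here do not state whether reads or pairs were counted.

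Values were tested as log2(FPKM + 1), which understates changes of low genes, with limma 3.58.1 in R 4.3.3 (trended prior, two-sided, Benjamini-Hochberg over all genes tested, threshold 0.05). A gene was kept where 5 or more libraries of a fit had 1 FPKM or more. Doses and the trend over dose rank were fitted in the 20 libraries of a sex, and the sexes and the difference between them in a change in all 40. Correlations used deviations from group means with 100000 permutations within groups, two-sided. Python 3.11.15, numpy 2.4.6, pandas 2.3.3 and matplotlib 3.10.9 were used. Tests were tried on simulated data.

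The 5 genes, the lists and the tests were chosen with earlier results of these data known. Symbols were paired with identifiers when the genes were chosen, since 0 identifiers matched the 47357 genes of the RefSeq table (GRCr8), so lists of other class II and cell type genes were not analysed here. The rule named the 5 genes and at most 2 identifiers most like the class II genes. The 80 pairs of libraries within groups differed by more than sampling noise (chi-square per degree of freedom 17.1 to 157). Alternatives were a pseudocount of 0.1, other filters and scalings, library weights, a replicate block, the compared groups alone, voom on recovered reads and each library left out. The ratios, the shared promoter run, the count of females above all males, and leaving out 30000x female replicates 1 and 2 were added after seeing the data.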

Additional observations from a re-analysis of the deposited data

Results flagged for a closer look

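Among the 40 sets of 5 libraries (5 genes in 8 groups), 6 held a library separated from the rest by more than Dixon's 95% critical value. For normally distributed values chance gives about 1 in 20, or 2. The rule was applied to FPKM without logs, and the share of all genes that it flags was not computed. Of the 6, 5 were female 1000x replicate 5, so they are 1 library and not independent. By FPKM + 1, that library exceeded the other 4 of its group by at least 1.5-fold in 327 of 13926 genes (2.35%). Its Cd74 was 985 FPKM against 290.4 to 463 in the other 4, and its RT1-Da 162 FPKM against 47.3 to 75.7. Its RT1-Ba was 31.9 FPKM against 8.46 to 13.5. Its Aif1 was 21.6 FPKM against 7.12 to 9.82, and its Cd68 31.9 FPKM against 10.8 to 14.7. The class II and the macrophage genes were thus high together in that library. The 6th was Aif1 in male 30000x replicate 1, at 8.96 FPKM against 4.70 to 5.73 in the other 4. That library also had the highest Cd74 and RT1-Da of its group.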

How the results depend on the processing

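The 5 sex differences kept their direction and stayed past the threshold in all 245 alternative fits (adjusted p 1.4e-07 to 0.024). No dose or trend value passed it in 890 fits (0.32 to 1), of which 54 changed sign, and no difference between the sexes in a change did so in 455 (0.17 to 1), of which 41 changed sign. With quantile normalization Cd74 was 0.034 in males at 30x and Cd68 0.0044 in females at 1000x, and the sex difference of the change was -0.18 for RT1-Da and 0.0074 for RT1-Ba at 30x and -0.12 for RT1-Da at 1000x. Scaled to library totals, males had 0.012 for Cd74 at 30x, 0.027 for RT1-Da and 0.029 for RT1-Ba at 1000x and 0.042 for Cd68 at 30000x, and the sex difference for RT1-Da was -0.25 at 30x and -0.19 at 1000x. This scaling moved the median of all genes to -0.21 in females at 30x and to -0.25 in the sex difference of the change at 30000x. With library weights males had -0.042 for Cd74 at 1000x and -0.011 for the Cd68 trend, females 0.00079 for RT1-Da and 0.036 for Cd68 at 30x and 0.058 for Aif1 and 0.12 for Cd68 at 1000x, and the sex difference was 0.012 for Cd74 and 0.074 for RT1-Ba at 30x and 0.0054 for RT1-Da at 30000x. With voom Cd68 was 0.020 in females at 1000x and the sex difference for RT1-Ba 0.00096 at 30x. Without 30000x female replicates 1 and 2 that for RT1-Da was 0.24 at 30000x. Leaving out 1 library at a time, values crossed 0 in males at 30x for Cd74 -0.10 to 0.073, RT1-Da -0.12 to 0.020, RT1-Ba -0.29 to 0.064 and Cd68 -0.058 to 0.19, in males at 1000x for Cd74 -0.13 to 0.20, RT1-Da -0.22 to 0.11 and RT1-Ba -0.23 to 0.20, in males at 30000x for Aif1 -0.028 to 0.17 and Cd68 -0.14 to 0.063. They did so also in the male trend for Cd68 -0.018 to 0.053, in females at 30x for RT1-Da -0.11 to 0.032, RT1-Ba -0.28 to 0.034 and Cd68 -0.23 to 0.015, in females at 1000x for Cd74 -0.38 to 0.063, RT1-Da -0.33 to 0.10, RT1-Ba -0.071 to 0.38, Aif1 -0.34 to 0.062 and Cd68 -0.26 to 0.11. The remaining ranges that crossed 0 were in the sex difference of the change at 30x for Cd74 -0.15 to 0.019, RT1-Da -0.064 to 0.11 and RT1-Ba -0.21 to 0.15, in that at 1000x for Cd74 -0.40 to 0.040, RT1-Da -0.27 to 0.17 and RT1-Ba -0.012 to 0.46, in that at 30000x for RT1-Da -0.18 to 0.15. The causes were not tested.

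The correlations of RT1-Ba, given here as Pearson r, depended on the choices. Without centring they were 0.33 with Aif1 and 0.53 with Cd68, past the threshold. Centred on sex alone they were 0.27 with Cd74 and 0.31 with RT1-Da, no longer past it, while by rank they were 0.44 and 0.46 and past it (adjusted p = 0.0071 and 0.0047). In females alone they were 0.28 and 0.21. In males alone RT1-Ba and Aif1 reached 0.70. Without 30000x female replicates 1 and 2, chosen for their RT1-Ba values, RT1-Ba reached 0.68 with Aif1 and 0.51 with Cd68. Leaving out 1 library, RT1-Ba ranged from 0.29 to 0.56 with Cd74, 0.26 to 0.55 with RT1-Da, 0.12 to 0.52 with Aif1 and 0.12 to 0.46 with Cd68. It passed with Aif1 without 30000x female replicate 2 (0.52) or 5 (0.43), and with Cd68 without male control replicate 1 (0.39) or 30000x female replicate 1 (0.46) or 5 (0.36). By Pearson r the other 6 pairs stayed past the threshold under every alternative run. By rank they did so except RT1-Da and Cd68 in females alone (rho = 0.34, adjusted p = 0.28).

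Replicate numbers did not pair the libraries: same-numbered libraries correlated over 0.1 in 4 of 30 male and 7 of 30 female pairs (-0.17 to 0.30). A replicate block changed no call for the 5 genes except the correlation of RT1-Da and RT1-Ba, 0.37 (adjusted p = 0.066). Over all genes it gave 3 and 1 calls in the sex difference of the change at 30x and 1000x, against 0 without it, and leaving out female control replicate 1 gave 48 at 30x. In the male comparisons the single called gene was lost under some alternatives. Depth limits RT1-Ba, Aif1 and Cd68 most, at as few as 80, 71 and 89 reads per library.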
